A study of Mus musculus with 18 samples.

Results

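Dnmt1 and Uhrf1, the 2 genes of the maintenance methylation machinery described here, were picked by symbol out of the 31053 mouse genes shared by the files of all libraries. Their UMIs (unique molecular identifiers, each standing for 1 captured transcript) were followed in 18 single-cell RNA-seq libraries. These were made from single mouse embryos at embryonic day 8.5 (E8.5), the onset of organogenesis, on a 129S4/SvJae background. Per the authors' methods, tissue of the ecto-placental cone was used to genotype the knockouts. The groups comprised 7 wildtype embryos (WT) and homozygous null embryos for Dnmt1 (Dnmt1 KO, 3 libraries), Dnmt3a (Dnmt3a KO, 4 libraries) and Dnmt3b (Dnmt3b KO, 4 libraries), collected after crosses of heterozygous parents, so that every cell of an embryo carries its genotype. The labels name no treatment and no further allele in any group.

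When DNA is replicated, the new strand carries no methylation and each methylated CpG becomes hemimethylated. UHRF1 binds hemimethylated CpGs and methylated histone H3, ubiquitylates histone H3 and the PCNA-associated factor PAF15, and thereby brings DNMT1, which copies the methyl group onto the new strand, to the replicated site. DNMT3A and DNMT3B instead methylate unmethylated DNA, and loss of DNMT1 in the mouse embryo leads to loss of most DNA methylation.

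Several facts of the libraries bear on the values. After quality control and doublet removal 109962 of 162336 barcodes remained, between 1366 and 12716 cells per library with a median of 4452 to 59714 UMIs per cell. Dnmt3b KO 1 and 2 shared 12249 barcodes, against at most 133 in any other pair of libraries, and were summed into 1 sample, so that Dnmt3b KO has n = 3. A combined human and mouse reference was used for counting in 4 libraries (WT 1, Dnmt3a KO 1 and 13, and Dnmt3b KO 11). By Y-linked genes, 1 of 7 WT libraries was male, against 3 of 3 Dnmt1 KO, 4 of 4 Dnmt3a KO and 3 of 4 Dnmt3b KO libraries, so for most embryos sex and genotype cannot be told apart. The libraries labelled Dnmt3b KO 11 and 12 had Dnmt3a levels of 15.0 and 7.56 UMIs per 1000000 UMIs of the sample (CPM), near those of Dnmt3a KO (7.39 to 11.8 CPM) and below WT (23.1 to 34.9 CPM), while Dnmt3b itself stood at 63.1 ± 5.49 CPM in Dnmt3b KO and 62.4 ± 17.9 CPM in WT (SD, n = 3 and 7). The count of Dnmt3b therefore does not check that label. The whole-embryo comparisons of both genes with WT are given below with and without those libraries.

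Dnmt1 (ENSMUSG00000004099) lies on chromosome 9 (GRCm38, 20907209 to 20959888, minus strand), with 39 exons in its principal transcript, and Uhrf1 (ENSMUSG00000001228) on chromosome 17 (56303321 to 56323486, plus strand), with 17 exons. The only annotated gene that overlaps either is the microRNA gene Mir7081, within an intron of Dnmt1 on the same strand. RefSeq (GRCm38.p6) lists 3 start-site windows for Dnmt1 and 2 for Uhrf1, each running from 250 bases before to 50 bases after an annotated start. The following 2 windows are shown because, among those 5, they alone hold the 8-base sites that E2F factors, which drive genes at the entry to S phase, are known to bind. They were chosen after the search. Capitals mark TTTCGCGC or TTTGGCGC (E2F) and CCAAT (bound by NF-Y), on either strand, the opposite strand reading GCGCGAAA, GCGCCAAA and ATTGG. The match to CCAAT and its opposite-strand match overlap at the 5′ end of the Dnmt1 window.

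Dnmt1 (chr9:20952574-20952873, minus strand): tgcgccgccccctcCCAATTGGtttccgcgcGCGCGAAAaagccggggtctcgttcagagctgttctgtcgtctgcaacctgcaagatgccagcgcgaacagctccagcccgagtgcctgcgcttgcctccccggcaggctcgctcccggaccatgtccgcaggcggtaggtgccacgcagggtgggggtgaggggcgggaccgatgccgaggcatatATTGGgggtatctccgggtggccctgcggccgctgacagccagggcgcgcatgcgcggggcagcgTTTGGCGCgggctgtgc
Uhrf1 (chr17:56304063-56304362, plus strand): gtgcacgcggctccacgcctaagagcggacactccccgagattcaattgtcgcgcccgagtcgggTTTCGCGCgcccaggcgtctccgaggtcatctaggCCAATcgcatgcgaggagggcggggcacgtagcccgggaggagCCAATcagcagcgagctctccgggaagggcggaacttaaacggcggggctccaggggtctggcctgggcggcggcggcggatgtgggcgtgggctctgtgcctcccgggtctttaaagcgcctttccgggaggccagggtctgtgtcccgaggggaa

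With the start site at position 0, TTTCGCGC began at position -219 on the opposite strand and TTTGGCGC at position 33 on the printed strand in the Dnmt1 window, and TTTCGCGC began at position -185 on the printed strand in the Uhrf1 window. TTTCGCGC occurred in 0.323% of all 32851 start-site windows of the genome, TTTGGCGC in 0.514%, and any of 4 E2F spellings (these and TTTCCCGC and TTTGCCGC) in 2.27%, whereas CCAAT occurred in 37.4%. These matches are letters in a window and not evidence of binding, and counts from the 3′ end of transcripts do not tell which start site was used.

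In WT embryos both genes were detected in every cell class measured. Each was lowest in extra-embryonic (ExE) endoderm, the yolk sac lineage, and highest in tissues of the posterior axis, neural tube or surface ectoderm. Cells were clustered, and clusters named by marker genes, into 21 classes, 18 of which had at least 25 cells in at least 3 WT embryos. Dnmt1 ranged from 43.8 ± 4.44 CPM in ExE endoderm to 132 ± 8.56 CPM in surface ectoderm (SD, n = 7 each), a ratio of 3.01. Uhrf1 ranged from 47.8 ± 6.998 CPM in ExE endoderm to 157 ± 22.5 CPM in neuromesodermal progenitors (NMPs, n = 7 each), a ratio of 3.29.

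The 7 ExE endoderm values of Dnmt1 ran from 37.7 to 50.0 CPM, below the 114 to 139 CPM of surface ectoderm in every embryo. Those of Uhrf1 ran from 39.5 to 61.2 CPM, below the 132 to 195 CPM of NMPs. ExE endoderm thus did not overlap the top class for either gene. Against the mean of the other classes of the same embryo (exact two-sided sign-flip test over embryos, adjusted over 36 tests), Dnmt1 was higher in 9 of 18 classes and lower in 4, and Uhrf1 was higher in 8 and lower in 4. The adjusted p was 0.0256 in every class measured in 7 embryos with all on one side, which is the smallest this design gave. In ExE endoderm the difference was -1.38 for Dnmt1 and -1.33 for Uhrf1 on the log2 scale. Without WT 2, 3, 6 or 7 no class passed for either gene (0 higher and 0 lower), whereas without WT 1, 4 or 5 Dnmt1 was higher in 8 or 9 classes and lower in 3 or 4, and Uhrf1 was higher in 7 or 8 and lower in 4. With 6 embryos no p can go below 0.0312 before adjustment. These p-values are over embryos, and where all embryos lay on one side they depend only on the number of embryos.

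Neural, mesenchymal and posterior classes were among those higher than the mean of the other classes for both genes. Next to NMPs, Uhrf1 stood high in presomitic mesoderm at 148 ± 14.9 CPM, in hindbrain and spinal cord at 142 ± 13.4 CPM and in forebrain and midbrain at 139 ± 12.7 CPM (n = 7 each). Dnmt1 was close together in the same tissues, with NMPs at 130 ± 10.8 CPM and hindbrain and spinal cord at 128 ± 14.8 CPM. ExE mesoderm (91.1 ± 7.34 CPM Dnmt1, 101 ± 7.94 CPM Uhrf1) and erythroid cells (84.7 ± 15.1 CPM Dnmt1, 91.6 ± 13.2 CPM Uhrf1) were below the mean of the other classes for both genes. Cardiomyocytes were low for Uhrf1 (65.0 ± 11.9 CPM, a log2 difference of -0.86, adjusted p = 0.0256 by the exact sign-flip test), but for Dnmt1 they stood at 96.7 ± 19.5 CPM, a log2 difference of -0.19 that did not pass the same exact test (adjusted p = 0.0804).

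Neighbours in the order of the classes were compared next. None of the 34 neighbouring pairs passed the exact sign-flip test after adjustment (smallest adjusted p = 0.472), and 1 of 17 pairs for each gene had an unadjusted p under 0.05, namely erythroid cells over ExE endoderm for Dnmt1 (log2 difference 0.94 ± 0.22, SD, n = 7) and cardiomyocytes over ExE endoderm for Uhrf1 (0.44 ± 0.27, n = 7). Another step of this size, notochord over cardiomyocytes for Uhrf1, was 0.55 ± 0.26 (n = 4). With 7 embryos no single pair can go below 0.0156 before adjustment. RNA released from lysed cells was checked with 3 embryonic globin genes: in the 17 classes other than erythroid cells they stood at 2.01% to 15.7% of their level over the whole embryo, with a median of 2.49%. Dnmt1 and Uhrf1 in ExE endoderm were well above that share of their level over the whole embryo, 104 ± 10.8 CPM and 112 ± 13.5 CPM (n = 7).

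**Figure D1:**
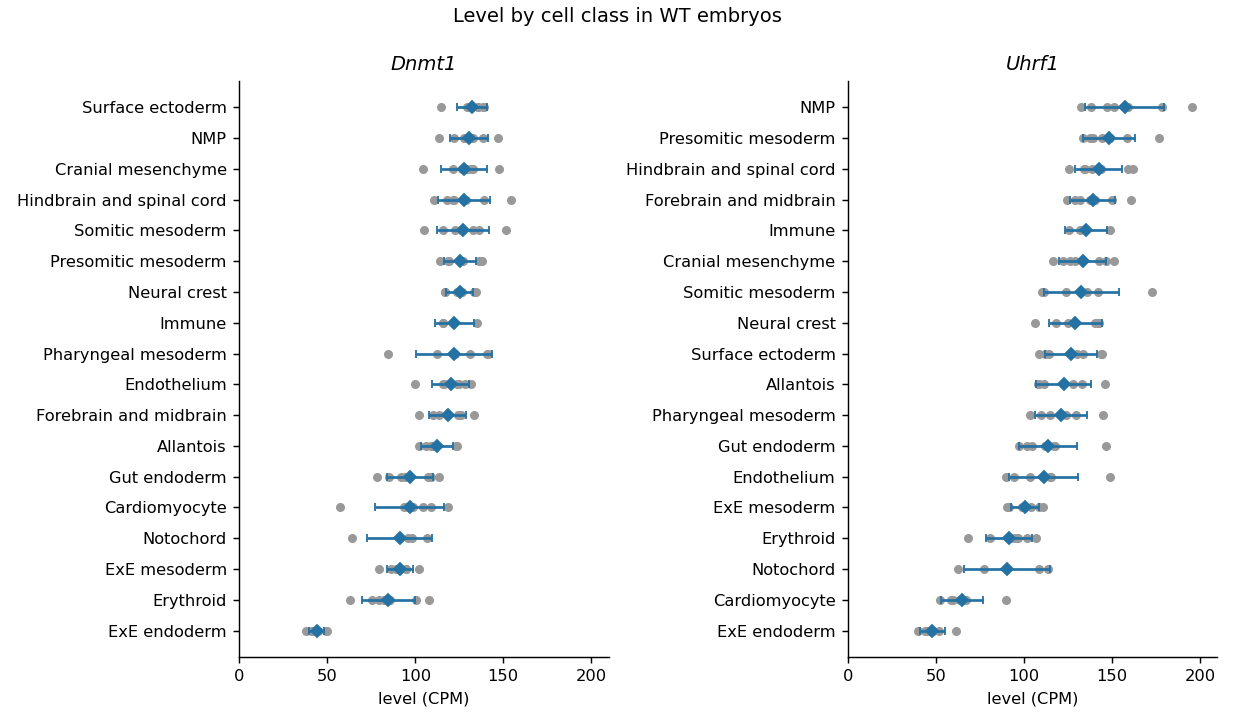
Level of Dnmt1 (left) and Uhrf1 (right) in CPM in each of 18 cell classes of WT embryos, ordered by mean; grey points are embryos, blue diamonds and bars are mean and SD. ExE endoderm is lowest in both panels, at 43.8 and 47.8 CPM, and cardiomyocytes are next lowest in the Uhrf1 panel only.

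Across the 18 WT classes the levels of the genes moved together, with Pearson r = 0.90 and Spearman rho = 0.80 between Dnmt1 and Uhrf1. With the summed level of 41 S-phase genes, r was 0.95 and rho 0.91 for Uhrf1, and r was 0.84 and rho 0.83 for Dnmt1. With that of 52 genes of the G2 and M phases, r was 0.85 and rho 0.54 for Uhrf1, and r was 0.86 and rho 0.43 for Dnmt1. These coefficients are descriptions over 18 classes that come from the same embryos and libraries. Among 7640 genes, those whose class profile was most like that of Dnmt1 were Rbbp6 (r = 0.957), Cep83, Snrpb, Rpap3 and Rbm27 (r = 0.945), and those most like Uhrf1 were Hcfc1 (r = 0.963), Snrpd1, U2af2, Chaf1a and Srsf7 (r = 0.957). Chaf1a encodes a subunit of the chromatin assembly factor that deposits histones behind the replication fork. Uhrf1 ranked 73 in likeness to Dnmt1, and Dnmt1 ranked 106 in likeness to Uhrf1 (r = 0.90).

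Within WT embryos both genes were higher in cells with more S-phase transcripts. Cells of each embryo were thinned to 1500 UMIs and ranked within their class by the share of UMIs from the S-phase list, which holds neither gene. They were then split into tertiles. From the bottom to the top tertile, Uhrf1 went from 94.9 ± 10.0 to 130 ± 17.2 CPM and Dnmt1 from 96.1 ± 9.75 to 111 ± 12.1 CPM (SD, n = 7). Both rose in 7 of 7 embryos, by 0.45 ± 0.08 on the log2 scale for Uhrf1 and 0.21 ± 0.08 for Dnmt1 (exact two-sided sign-flip test, p = 0.0156 for each, the smallest that 7 embryos allow). The rise was larger for Uhrf1 than for Dnmt1 in 7 of 7 embryos, with a difference of 0.24 ± 0.08 (exact sign-flip test, p = 0.0156). The split was made within each class, so the tertiles of an embryo hold near equal numbers of cells of every class. The UMIs that a class gives to each tertile can still differ. The S-phase list itself, which set the ranking, was higher by 0.41 ± 0.08, and a list of 52 genes of the G2 and M phases went the other way, by -0.19 ± 0.03.

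In every knockout embryo the top tertile was also above the bottom tertile for both genes. For Uhrf1 the log2 difference was 0.41 ± 0.06 (Dnmt1 KO), 0.48 ± 0.06 (Dnmt3a KO) and 0.48 ± 0.07 (Dnmt3b KO) (SD, n = 3, 4 and 3, with Dnmt3b KO 1 standing for its shared pair), and 3 or 4 embryos cannot reach 0.05 in the exact test. The transcripts left from the disrupted Dnmt1 gene went from 12.7 ± 1.13 to 17.5 ± 0.525 CPM, a log2 difference of 0.47 ± 0.11.

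**Figure D2:**
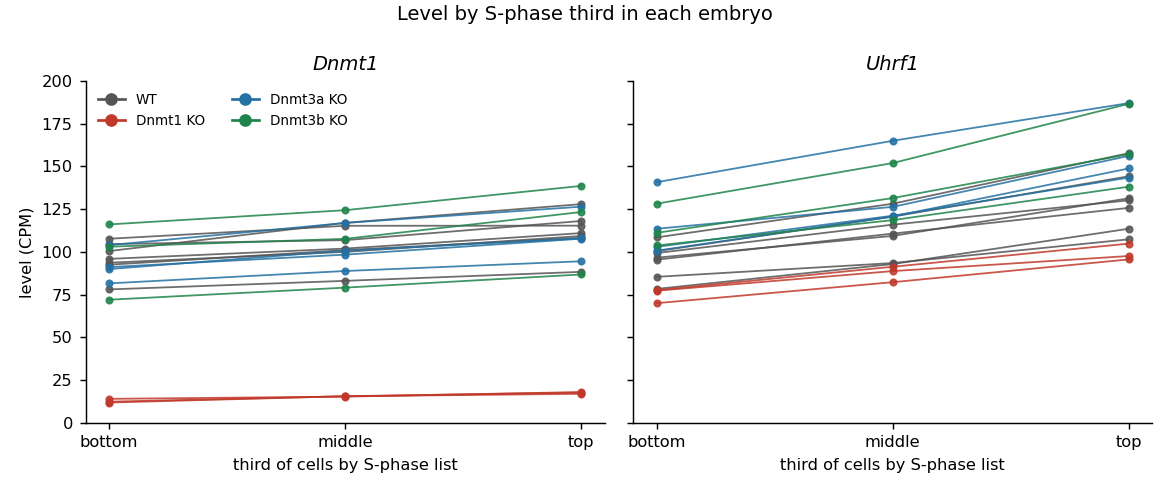
Level of Dnmt1 (left) and Uhrf1 (right) in CPM in the bottom, middle and top tertile of the cells of each embryo. Cells were ranked within their class by the share of UMIs from the S-phase list. Each line is an embryo, coloured by genotype. Every line ends above its start, and the WT lines climb by 0.21 for Dnmt1 and 0.45 for Uhrf1 on the log2 scale.

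The first comparison asked what the loss of Dnmt1 does to the pair of genes. Dnmt1, whose level checks the labels, stood at 14.9, 15.7 and 15.1 CPM in the 3 Dnmt1 KO embryos, whereas the WT embryos had a lowest level of 83.2, a median of 103 and a highest level of 116 CPM. The groups did not overlap, and the KO embryos lay within 1 CPM of each other. The log2 fold change in Dnmt1 was -2.69 (SE 0.12, with an adjusted p of 1.18e-10, edgeR quasi-likelihood test with Benjamini-Hochberg adjustment over 18763 genes). In that fit 17.9% of all genes tested were lower and 18.9% higher at an adjusted p under 0.05.

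Some Dnmt1 UMIs were left in each Dnmt1 KO embryo. The position of the mutation in the gene is not given in the sources used here, and UMIs from the 3′ end of a transcript do not tell whether a functional protein can be made from it. At a depth thinned to 1500 UMIs per cell, 1.997% to 2.55% of Dnmt1 KO cells had at least 1 Dnmt1 UMI, against 11.4% to 17.2% of WT cells. Without thinning the shares were 26.6% to 55.5% and 53.3% to 84.3%. If the UMIs fell on cells at random, the thinned shares would be 2.01% to 2.59% in Dnmt1 KO and 11.7% to 16.8% in WT. The measured shares lay close to the random ones in both groups. At this thinned depth few cells hold more than 1 UMI, so the comparison can hardly tell an even from an uneven spread over cells.

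The decrease was found in each cell class that could be tested. Only 5 classes had at least 25 cells in at least 3 WT and 3 Dnmt1 KO embryos, and Dnmt1 was lower in all 5 (13.3% of genes were lower in endothelium, 12.3% in ExE endoderm, 19% in ExE mesoderm, 12% in gut endoderm and 10.6% in immune cells). In ExE endoderm it stood at 8.43, 8.88 and 7.81 CPM in Dnmt1 KO, against 37.7 to 50.0 CPM in WT, and in gut endoderm at 11.8, 18.8 and 9.37 CPM, against 78.3 to 114 CPM. No KO value reached the WT range. The log2 fold change was -2.34 in ExE endoderm, -2.49 in immune cells, -2.66 in ExE mesoderm, -2.75 in gut endoderm and -2.78 in endothelium, each with an SE between 0.12 and 0.22 and an adjusted p of at most 1.06e-06 (edgeR).

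The level left in Dnmt1 KO was 8.37 ± 0.535 CPM in ExE endoderm, the lowest WT class, and 19.7 ± 3.45 CPM in immune cells (SD, n = 3 each). As a share of WT, the residue ran from 13.8% in gut endoderm to 19.1% in ExE endoderm. None of the 10 pairs of classes differed in the size of the Dnmt1 decrease after adjustment (exact two-sided permutation test of the difference within embryos, chosen after the class values were seen, smallest adjusted p = 0.0833). That pair was ExE endoderm against ExE mesoderm, with a log2 decrease smaller by 0.36 in ExE endoderm (same test, unadjusted p = 0.0167). ExE endoderm against endothelium and against gut endoderm each had an unadjusted p of 0.05 in that test. With 3 KO and 7 WT embryos no p can go below 0.0167, and with 3 against 3, as in pairs with immune cells, none below 0.1. The cells of a class came in part from different clusters: 71.7% of Dnmt1 KO ExE endoderm cells lay in cluster 13 and 99.5% of ExE mesoderm cells in cluster 28, where WT cells of those classes lay mostly in clusters 0 and 30.

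Uhrf1, whose product recruits DNMT1, was slightly lower in Dnmt1 KO embryos. It stood at 82.4, 87.6 and 91.6 CPM, and in WT at a lowest level of 95.1, a median of 112 and a highest level of 132 CPM. The groups did not overlap, but the highest KO embryo lay just under WT 1 and WT 3 (95.1 and 95.5 CPM). In log2 terms Uhrf1 fell by 0.29 (SE 0.10, adjusted p = 0.0272, edgeR), which passed the test, as did 17.9% of all genes in the same direction. The call was lost with the Y-linked level as a covariate (-0.34, adjusted p = 0.0762) and without WT 2, Dnmt1 KO 1 or Dnmt1 KO 2 (-0.24, -0.23 and -0.30, adjusted p = 0.0554, 0.146 and 0.0698, edgeR).

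**Figure D3:**
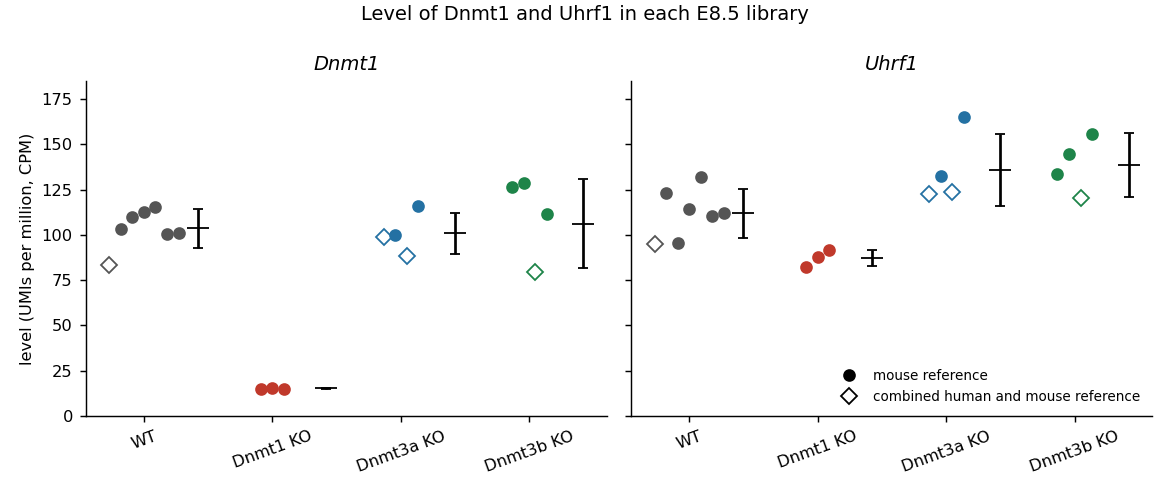
Level of Dnmt1 (left) and Uhrf1 (right) in CPM in each of the 18 libraries by genotype; filled circles were counted on the mouse reference and open diamonds on the combined human and mouse reference, and black bars give mean ± SD over samples (Dnmt3b KO 1 and 2 summed). Dnmt1 is near 15 CPM in Dnmt1 KO, and Uhrf1 is lowest in Dnmt1 KO.

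By class, Uhrf1 was lower in gut endoderm of Dnmt1 KO embryos, which is 1 of 5 classes tested and where 12% of genes were lower. There it stood at 71.5, 68.8 and 63.5 CPM in Dnmt1 KO and at 97.0 to 146 CPM in WT, with no overlap. The log2 fold change was -0.60 (SE 0.12, adjusted p = 0.000963, edgeR), and these values rest on 29, 42 and 41 Dnmt1 KO cells, too few for a test with a minimum of 50 cells. In the cells left unnamed Uhrf1 was also lower, at 98.8 to 117 CPM in Dnmt1 KO and 120.03 to 153 CPM in WT (log2 fold change -0.26, SE 0.08, adjusted p = 0.0265, edgeR, where 13.9% of genes were lower). These are a mixture of unnamed clusters that made up 15.2%, 10.3% and 48.5% of cells in Dnmt1 KO 1, 2 and 3 and 11.2% to 20.9% in WT, and the part of their makeup in the difference was not tested. In ExE endoderm Uhrf1 did not pass, with 47.4, 49.7 and 47.6 CPM in Dnmt1 KO inside the WT range of 39.5 to 61.2 CPM (log2 fold change 0.05, SE 0.12). Immune cells (-0.28), endothelium (-0.25) and ExE mesoderm (-0.14) had values below 0 that did not pass (adjusted p = 0.111, 0.157 and 0.354). The Dnmt1 KO effect on Uhrf1 was 0.76 higher in ExE endoderm than in gut endoderm, but in the exact permutation test over the 20 class pairs of both genes this difference had an adjusted p of 0.0833 (unadjusted p = 0.0167, the smallest possible).

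Epiblast-like, ExE ectoderm-like and parietal endoderm-like cells were too few in WT embryos for a WT group to test. In cells named epiblast-like from pluripotency markers, Uhrf1 stood at 122, 119 and 115 CPM and Dnmt1 at 21.6, 20.5 and 17.3 CPM in the 3 Dnmt1 KO embryos. In ExE ectoderm-like cells, the trophoblast lineage, Uhrf1 stood at 109, 106 and 90.2 CPM and Dnmt1 at 23.7, 20.4 and 19.0 CPM, whereas WT 2, the only WT embryo with enough of these cells, had 123 CPM of Uhrf1 and 111 CPM of Dnmt1. Over the whole embryo Uhrf1 stood at 82.4, 87.6 and 91.6 CPM in the same embryos, below its epiblast-like level in each, and below its ExE ectoderm-like level in Dnmt1 KO 1 and 2 but not in Dnmt1 KO 3. In parietal endoderm-like cells, measured in Dnmt1 KO 2 alone (47 cells), Uhrf1 stood lower, at 38.7 CPM, and Dnmt1 at 5.31 CPM.

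Because the knockouts differ in class makeup, both genes were compared again at the class makeup of WT. Over the 4 classes with enough cells in every WT and Dnmt1 KO embryo, the log2 difference was -2.71 for Dnmt1 and -0.30 for Uhrf1 (SE 0.12 and 0.09). In the exact permutation test both had an adjusted p of 0.0667, and Dnmt1 already reached the smallest unadjusted p that 3 against 7 embryos allow (0.0167). Set against the summed S-phase list, which stood at 3705 ± 198 CPM in Dnmt1 KO and 4233 ± 241 CPM in WT, Dnmt1 was lower (-2.57, exact permutation test, adjusted p = 0.0333, and 0.111 without any 1 of the Dnmt1 KO embryos, where 2 against 7 cannot pass), while the difference in Uhrf1 was -0.16 and did not pass (SE 0.05, exact permutation test, adjusted p = 0.1), though without WT 3 it was -0.19 and passed (exact permutation test, adjusted p = 0.0357). Against the list of G2 and M genes the difference in Dnmt1 was -2.81 and did not pass (exact permutation test, adjusted p = 0.05). Fewer S-phase cells and less of each transcript per cell cannot be told apart in such sums.

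In Dnmt3a KO and Dnmt3b KO embryos the level of Dnmt1 did not pass the test in either direction. It stood at 99.1, 99.8, 88.4 and 116 CPM in Dnmt3a KO, and at 128, 79.4 and 111 CPM in Dnmt3b KO, both overlapping WT. The log2 fold change was -0.06 (normal 95% interval -0.24 to 0.12) in Dnmt3a KO and -0.00 (-0.20 to 0.19) in Dnmt3b KO (adjusted p = 0.908 and 0.9904, edgeR). Without the libraries labelled Dnmt3b KO 11 and 12, which leaves 1 sample, the latter was 0.22. By class, Dnmt1 passed in 0 of 18 classes in Dnmt3a KO and 0 of 16 in Dnmt3b KO (edgeR, with 0 and 1 classes at an unadjusted p under 0.05), and its log2 fold changes ran from -0.27 to 0.11 and from -0.18 to 0.23.

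The choice of reference went with the level of Dnmt1. Dnmt1 was lowest of its group in the library counted on the combined reference in WT (83.2 CPM, against 101 to 116 CPM in the other 6) and in Dnmt3b KO (79.4 CPM, against 111 to 129 CPM in the other 3 libraries), and the Dnmt3a KO libraries so counted had 99.1 and 88.4 CPM, against 99.8 and 116 CPM. Uhrf1 showed the same order, with 95.1 against 95.5 to 132 CPM in WT and 120 against 134 to 156 CPM in Dnmt3b KO. No Dnmt1 KO library was counted in that way. The part of the reference in these differences was not tested beyond the fits that follow.

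Uhrf1 was on average higher in Dnmt3a KO and Dnmt3b KO embryos than in WT, without passing the test. The 4 Dnmt3a KO embryos had 123, 133, 124 and 165 CPM and the 3 Dnmt3b KO samples 139, 120 and 156 CPM, against 95.1 to 132 CPM in WT. Both ranges overlapped WT. The log2 fold change was 0.26 in Dnmt3a KO (SE 0.09, normal 95% interval 0.09 to 0.43, adjusted p = 0.267) and 0.28 in Dnmt3b KO (SE 0.09, interval 0.09 to 0.46, adjusted p = 0.125, edgeR). In those fits 0.512% and 3.32% of all genes passed as higher, and 0.0373% and 0.373% as lower. Before adjustment the edgeR p was 0.00706 in Dnmt3a KO and 0.00885 in Dnmt3b KO, near the 0.00842 of the Uhrf1 decrease in Dnmt1 KO. The adjusted p also depends on how many genes pass, and in Dnmt1 KO 17.9% were lower and 18.9% higher. In counts simulated for the same groups, a log2 change of 0.3 passed for 3.57% of genes in Dnmt3a KO and 0% in Dnmt3b KO. In Dnmt1 KO a log2 change of 0.3 passed for 0% of genes in such counts, yet Uhrf1 passed in the embryos at -0.29. How often Uhrf1 itself would pass at this size was not tested. Without WT 2 the Dnmt3b KO value passed (0.33, adjusted p = 0.0494, edgeR), and without the libraries labelled Dnmt3b KO 11 and 12 it was 0.24 (adjusted p = 1, edgeR, with 1 sample left that is assumed to vary like the other groups). With the combined reference as a covariate the values were 0.31 (adjusted p = 0.139) and 0.30 (adjusted p = 0.0602), and without the 4 libraries counted on it 0.33 and 0.32 (adjusted p = 0.543 and 0.193, edgeR). With the Y-linked level as a covariate they were 0.21 in Dnmt3a KO and 0.25 in Dnmt3b KO (adjusted p = 0.641 and 0.216, edgeR). The only male WT embryo, WT 2, had 123 CPM of Uhrf1.

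Relative to S-phase transcripts the difference in Uhrf1 did pass. The ratio of Uhrf1 to the summed S-phase list was 2.63% in WT, 3.26% in Dnmt3a KO and 3.22% in Dnmt3b KO (geometric means). The log2 difference from WT was 0.31 (SE 0.09, n = 4) and 0.29 (SE 0.07, n = 3), with an adjusted p of 0.0333 for each in the exact permutation test, both at the smallest unadjusted p the design allows (0.00606 and 0.0167). Against the G2 and M list the differences were 0.31 and 0.34 and did not pass (exact permutation test, adjusted p = 0.0727 and 0.0750), and against the S-phase list the Dnmt3b KO difference was 0.33 without Dnmt3b KO 11 and 0.24 without Dnmt3b KO 12, where 2 against 7 samples cannot pass the exact test (adjusted p = 0.1 for each). At the class makeup of WT over 13 classes, Uhrf1 differed by 0.28 and 0.29, which did not pass (exact permutation test, adjusted p = 0.0667 and 0.0750). Dnmt1 differed by -0.05 and 0.00 at that makeup.

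Within classes, Uhrf1 had a fold change above 0 in 18 of 18 classes in Dnmt3a KO and 16 of 16 in Dnmt3b KO, with medians of 0.29 and 0.28 on the log2 scale. The classes come from the same embryos and are not independent of each other. Only 1 named class passed in each: ExE endoderm in Dnmt3a KO (0.41, SE 0.10, adjusted p = 0.0370) and the allantois, which forms the umbilical connection, in Dnmt3b KO (0.51, SE 0.12, adjusted p = 0.0497, edgeR), while 14 of 18 and 12 of 16 classes had an unadjusted p under 0.05. The number that passed was 4 in Dnmt3a KO and 5 in Dnmt3b KO with DESeq2, 0 in Dnmt3a KO with the Y-linked covariate, and in Dnmt3b KO 4 with the combined-reference covariate, 3 without the low-count filter, 2 with Dnmt3b KO 1 and 2 kept separate and 0 with a minimum of 50 cells. Between 0% and 1.74% of genes were called higher in the Dnmt3a KO fits and between 0.168% and 3.02% in the Dnmt3b KO fits, with 1.74% in ExE endoderm of the former and 0.974% in the allantois of the latter. Uhrf1 was also higher in the unnamed cells of Dnmt3b KO (0.32, SE 0.08, adjusted p = 0.0389, edgeR, where 2.19% of genes were higher), at 140.3 to 186 CPM against 120.03 to 153 CPM in WT.

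Both calls lay at the edge of the threshold. ExE endoderm cells came from the same clusters in other shares, with 51.9% of WT and 26.5% of Dnmt3a KO cells in cluster 0, and 29.7% and 53.9% in cluster 1. Cluster 1 was shallow, with a median of 0.241 times the median UMIs of the library, against 1.97 times in cluster 0. The part of this shift in the Uhrf1 difference was not tested. In ExE endoderm, the lowest WT class, Uhrf1 stood at 54.5, 81.3, 53.5 and 69.1 CPM in Dnmt3a KO and at 39.5 to 61.2 CPM in WT, with the ranges overlapping, and the call was lost with the Y-linked covariate (0.27, adjusted p = 0.626) and in 7 of 18 fits that left out 1 library (WT 3, 4, 5, 6 or 7, or Dnmt3a KO 2 or 14, 0.30 to 0.42, adjusted p up to 0.122, edgeR). In the allantois, Uhrf1 stood at 179, 146 and 211 CPM in Dnmt3b KO, above the WT range of 108 to 146 CPM (n = 6), where WT 2 (146.2 CPM) and Dnmt3b KO 11 (146.3 CPM) nearly met, and the number of classes that passed in Dnmt3b KO changed in 12 of 18 fits that left out 1 library (0 without WT 1, 3, 4, 5 or 6, Dnmt3a KO 1, 13 or 14, or Dnmt3b KO 2 or 12, and 2 without WT 2 or Dnmt3b KO 11). The smallest differences were in cardiomyocytes, at 0.04 in Dnmt3a KO and 0.14 in Dnmt3b KO.

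**Figure D4:**
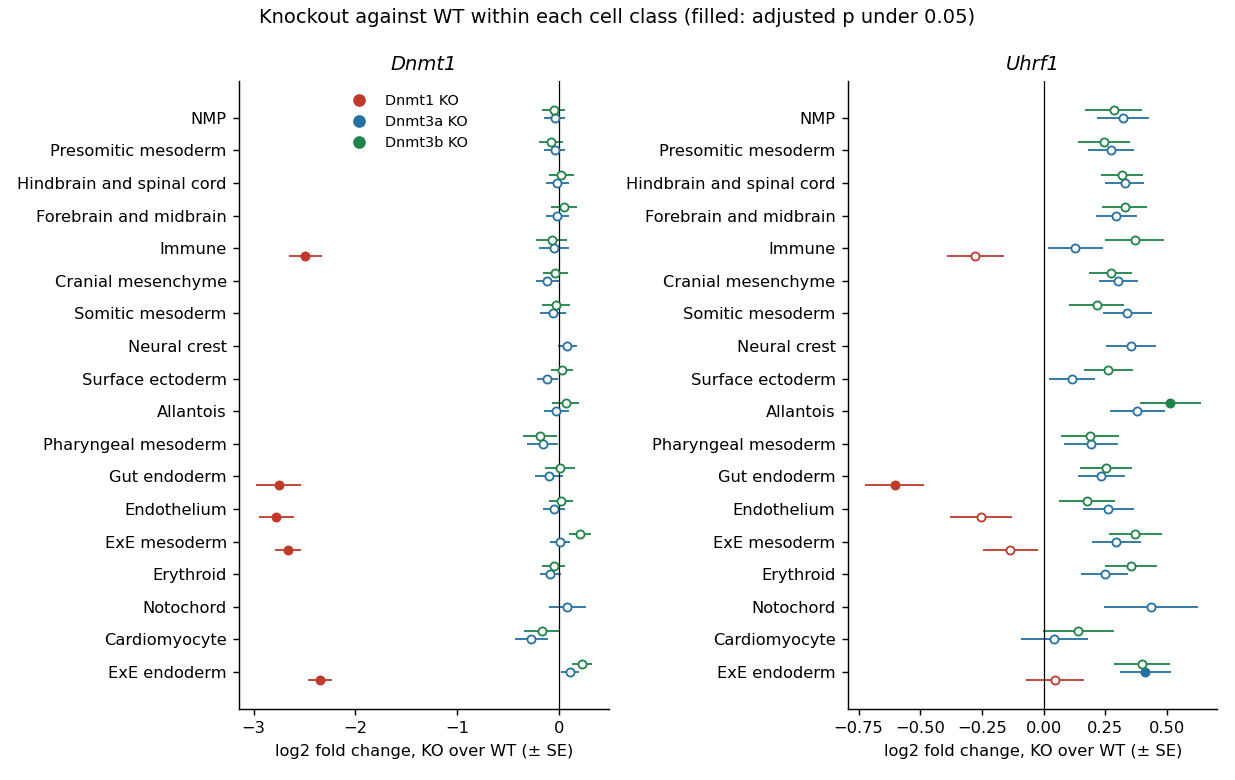
Log2 fold change (KO over WT) with its SE for Dnmt1 (left) and Uhrf1 (right) in each cell class, coloured by knockout; filled points have an adjusted p under 0.05 and classes are ordered by their WT level of Uhrf1. Dnmt1 lies between -2.78 and -2.34 in Dnmt1 KO and between -0.27 and 0.23 in the other knockouts, and Uhrf1 lies above 0 in every class of Dnmt3a KO and Dnmt3b KO.

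Set against each other, the knockouts differed in Uhrf1. It was lower in Dnmt1 KO than in Dnmt3a KO by -0.55 in log2 terms (SE 0.11, adjusted p = 0.000862) and than in Dnmt3b KO by -0.56 (SE 0.11, adjusted p = 0.00178, edgeR, and -0.53 without the libraries labelled Dnmt3b KO 11 and 12, which leaves 1 Dnmt3b KO sample), where 17.4% and 15% of genes were lower and 17.7% and 14.4% higher. The Dnmt1 KO range of 82.4 to 91.6 CPM lay apart from the lowest Dnmt3a KO and Dnmt3b KO samples (123 and 120 CPM). NMPs, the highest WT class, made up 0.157% to 0.410% of cells in Dnmt1 KO libraries and 2.40% to 5.41% in the other knockouts. ExE endoderm, the lowest, made up 8.90% to 28.2% and 7.51% to 36.1%. The part of class makeup in these contrasts between knockouts was not tested. Dnmt3b KO and Dnmt3a KO differed in Uhrf1 by 0.02 (normal 95% interval -0.19 to 0.22, adjusted p = 0.999, edgeR), where 0.496% of genes were higher and 0.016% lower. All Dnmt1 KO and Dnmt3a KO libraries were male.

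The other proteins of maintenance methylation were followed through a list of 16 partners: the replication clamp and its associated factor (Pcna, Pclaf), the ligase Lig1, chromatin remodelling (Hells, Cdca7), the deubiquitylase Usp7, deacetylases and histone methyltransferases among them. In Dnmt1 KO 3 of the 16 fell and 1 rose at an adjusted p under 0.05, where 17.9% of all genes were lower and 18.9% higher, so the share that fell was near that of all genes. The list had a median log2 fold change of -0.13, against 0.01 over all genes tested. In Dnmt3a KO and Dnmt3b KO 0 of 16 passed (edgeR, and 0 with DESeq2, with 0 and 1 at an unadjusted p under 0.05), with medians of -0.04 and -0.05.

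Pclaf, which encodes PAF15, the clamp-bound protein that UHRF1 ubiquitylates, fell most. It was at 283, 223 and 396 CPM in Dnmt1 KO 1, 2 and 3 and at 455 to 591 CPM in WT, without overlap (log2 fold change -0.75, SE 0.13, adjusted p = 0.000332, edgeR). Cdca7, which brings the remodeller HELLS to chromatin, fell by 0.44 (SE 0.13, adjusted p = 0.0131, edgeR), from 124 ± 16.3 CPM in WT to 86.5 ± 24.8 CPM (n = 7 and 3). Hells itself rose by 0.49 (SE 0.15, adjusted p = 0.0145, edgeR), from 140 ± 22.1 to 187 ± 29.9 CPM. The partners thus did not move in one direction, and without Dnmt1 KO 3 or with the Y-linked covariate none rose, while without Dnmt1 KO 1 or 2 only 1 fell. Hdac2, a histone deacetylase, fell by 0.27 (SE 0.10, adjusted p = 0.0345, edgeR), and Uhrf2, the paralogue of Uhrf1, had a log2 fold change of -0.09 (SE 0.12) that did not pass. ExE endoderm made up 28.2%, 25.3% and 8.90% of cells in Dnmt1 KO 1, 2 and 3 and 9.39% to 19.8% in WT. The part of class makeup in these partner differences was not tested.

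**Figure D5:**
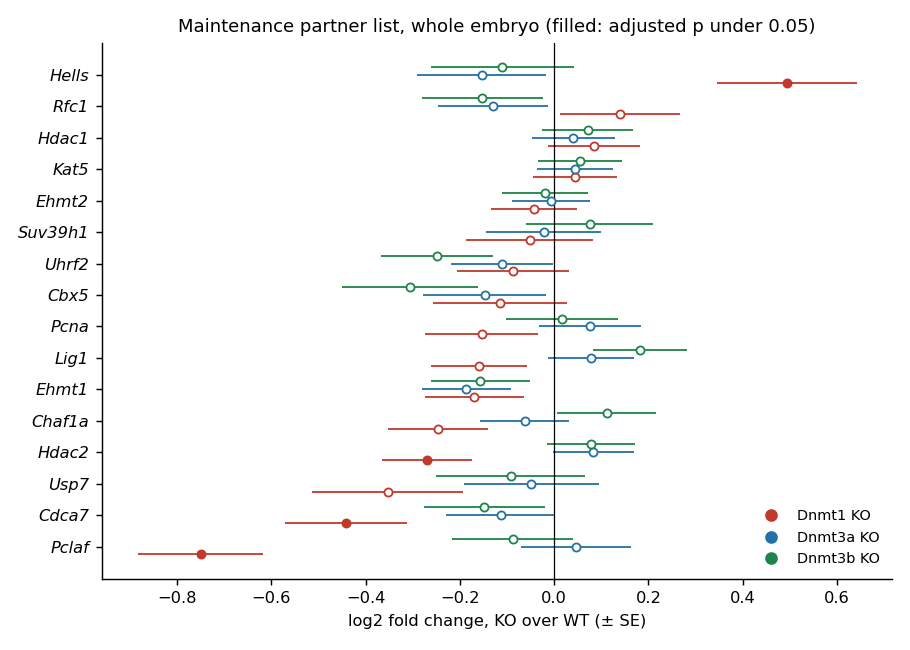
Log2 fold change (KO over WT, whole embryo) with its SE for the 16 genes of the maintenance partner list, coloured by knockout and ordered by their value in Dnmt1 KO; filled points have an adjusted p under 0.05. Filled points occur only for Dnmt1 KO, with Pclaf at -0.75, Cdca7 at -0.44 and Hdac2 at -0.27 on the left and Hells at 0.49 on the right.

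The S-phase list, which shares 3 genes with the partners (Cdca7, Hells and Pcna), gave 10 genes lower and 2 higher of 41 in Dnmt1 KO and 0 of 41 in the other knockouts (edgeR, and 0 with DESeq2, with 4 in Dnmt3a KO and 9 in Dnmt3b KO at an unadjusted p under 0.05). Of all genes 17.9% were lower and 18.9% higher in Dnmt1 KO, and 0.512% and 3.32% were higher in Dnmt3a KO and Dnmt3b KO. Among those lower, picked after their values were seen, were Rrm2, a subunit of ribonucleotide reductase (-0.65), and Fen1, the flap endonuclease that processes Okazaki fragments (-0.44). The list's median in Dnmt1 KO was -0.11, against 0.01 over all genes tested. Among the 18 WT classes the summed list ran from 2380 CPM in ExE endoderm to 5463 CPM in hindbrain and spinal cord. It stood at 3540, 3649 and 3925 CPM in Dnmt1 KO 1, 2 and 3, where ExE endoderm made up 28.2%, 25.3% and 8.90% of cells. The part of class makeup in these differences was not tested. With the Y-linked covariate the list had 6 genes lower and 0 higher, with the combined-reference covariate it had 4 higher, and without the low-count filter 1 higher. Without Dnmt1 KO 1 it had 6 genes lower and 1 higher, and without WT 5 or Dnmt1 KO 2 it had 1 higher.

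Of 7 genes that write or erase methylation otherwise, 2 rose in Dnmt1 KO, where 18.9% of all genes were higher. Dnmt3b stood at 112 ± 15.9 CPM against 62.4 ± 17.9 CPM in WT (log2 fold change 0.93, SE 0.17, adjusted p = 0.000543), and Dnmt3l, a cofactor of the de novo enzymes, at 9.88, 10.2 and 38.8 CPM (lowest, median and highest) against 0.158 to 1.43 CPM (log2 fold change 5.72, SE 0.63, adjusted p = 2.82e-06, edgeR). Epiblast-like cells made up 16.5%, 9.23% and 11.9% of cells in Dnmt1 KO 1, 2 and 3 and at most 0.266% in any WT embryo, and their part in the Dnmt3b difference was not tested. ExE ectoderm-like cells made up 31.1% of cells in Dnmt1 KO 2, which had the highest Dnmt3l, against 5.601% and 4.47% in Dnmt1 KO 1 and 3, and WT 2, which had the highest Dnmt3l of WT, was the WT embryo with most of them (1.74%). Their part in the Dnmt3l difference was not tested. Dnmt3a was at 32.0 ± 5.81 CPM in Dnmt1 KO and 29.8 ± 3.86 CPM in WT and did not pass. In Dnmt3a KO, Dnmt3a itself was the only one of the 7 to pass (-1.69, adjusted p = 0.00250), and none passed in Dnmt3b KO (edgeR, and 0 with DESeq2, with 3 at an unadjusted p under 0.05).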

How the data were processed

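Single-cell RNA-seq (10x 3′ version 3 chemistry) was analysed in 18 libraries. The deposited files hold raw UMI counts per gene and barcode, which the authors made with Cell Ranger 3.1.0 (17 libraries) or 5.0.0 (1 library, Dnmt3b KO 12), per their headers. The authors' methods name Cell Ranger 5.0.0 for the 10x data. The authors' cell type annotation was not used here. Barcodes with at least 1500 UMIs, at most 30% mitochondrial and 35% ribosomal UMIs were kept, predicted doublets (0.8% per 1000 cells) were removed, and cells were clustered (scanpy 1.11.5) and named from marker genes. Between 14.9% and 25.1% of cells per group stayed unnamed. Counts were summed per embryo, or per embryo and class with at least 25 cells in at least 3 embryos per group, and are given as CPM.

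Groups were compared with edgeR 4.0.16 (quasi-likelihood test, TMM scaling, low-count filter, all groups in 1 fit, Benjamini-Hochberg adjustment over all genes tested, in R 4.3.3). A gene passed at an adjusted p under 0.05. DESeq2 1.42.0 was an alternative, as were other filters, covariates and left-out libraries. Ratios and class sums were compared with exact permutation tests (scipy 1.17.1), adjusted over 6 tests each. Only the edgeR fit over whole embryos was tested on simulated counts. Depth was 3.66e+07 to 2.34e+08 UMIs per library, and counts from cells cover counting error only. The members and gene lists were chosen with earlier results of these data known. Named genes were both members, genes of the partner and of the writer and eraser lists that passed or were compared with the members, and the 5 genes most like each member. S-phase genes were named outside this rule. Replicate numbers were not treated as pairs.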

Additional observations from a re-analysis of the deposited data

Results flagged for a closer look

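In 6 of 74 groups of embryos tested, the extreme embryo lay apart from the others by Dixon's criterion, and chance flags about 5% of groups. Dnmt1 in WT 1 was lowest in cardiomyocytes (57.1 CPM, the next embryo at 93.6 CPM) and in surface ectoderm (114 CPM, next 129 CPM), and WT 1 was counted on the combined reference. Uhrf1 in WT 5, the library with the fewest cells (1366), was highest in cardiomyocytes (89.7 CPM, next 66.9 CPM), endothelium (149 CPM, next 115 CPM) and gut endoderm (146 CPM, next 118 CPM). Uhrf1 in somitic mesoderm of Dnmt3a KO 14 stood at 209.9 CPM, next 160 CPM (159.6). The part of the reference and of cell number in these values was not tested.

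The effect of the knockouts on Uhrf1 differed between genotypes, by -0.55 between Dnmt1 KO and Dnmt3a KO and by -0.56 between Dnmt1 KO and Dnmt3b KO on the log2 scale (edgeR, adjusted p = 0.000862 and 0.00178).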

How the results depend on the processing

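Of 1155 recomputed values over 53 results, 1021 kept their direction and side of the threshold or stayed within 1.5 times, and 0 results that had passed reversed. The cause of the changes below was not tested. Dnmt1 in Dnmt3b KO, near 0, changed sign with DESeq2 (0.00170), no low-count filter (0.0236), only the 1500-UMI minimum (0.000164), the shared pair separate (0.0672), the combined-reference covariate (0.0314), the replicate block (0.33), thinning (0.00420), only the groups compared (0.00548), without Dnmt3b KO 11 and 12 (0.22) and, chosen after seeing the data, without the 4 combined-reference libraries (0.11). In Dnmt3a KO it was 0.0299 with that covariate and 0.00223 with the block. Uhrf1 in Dnmt1 KO was -0.34 with the Y-linked covariate and -0.26 with the replicate block, and against Dnmt3a KO and Dnmt3b KO the block gave -0.49 and -0.62, none passing. Uhrf1 in Dnmt3b KO minus Dnmt3a KO was -0.0103 with the reference covariate, -0.0118 without its 4 libraries and -0.0210 without Dnmt3b KO 11 and 12. Replicate numbers did not pair samples: 3 of 10 same-number pairs had r over 0.1 (range -0.22 to 0.19).

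In Dnmt1 KO the partner list had 0 genes higher with the Y-linked covariate and 1 lower with the block. The S-phase list had 1 higher without the low-count filter, 0 with the Y-linked covariate, 4 with the reference covariate and 1 with the block, and 6 lower with the Y-linked covariate and 5 with the block. In Dnmt3b KO 1 was lower with the Y-linked covariate. With at least 50 cells, 2 named classes could be tested in Dnmt1 KO, with Dnmt1 lower in 2 and Uhrf1 in 0. Classes with higher Uhrf1 numbered 4 with DESeq2 and 0 with the Y-linked covariate in Dnmt3a KO, and in Dnmt3b KO 0 with 50 cells, 5 with DESeq2, 3 without the filter, 2 with the pair separate and 4 with the reference covariate. In ExE endoderm of Dnmt3a KO the Y-linked covariate gave 0.27 and the block 0.35 for Uhrf1, neither passing. With classes weighted equally Dnmt1 in Dnmt3b KO was -0.0128. Against the G2M list the values were -2.81 (Dnmt1, Dnmt1 KO), 0.0399 (Dnmt1, Dnmt3b KO), 0.31 and 0.34 (Uhrf1, Dnmt3a KO and Dnmt3b KO), none passing.

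Leaving out 1 library gave ranges of -0.0285 to 0.14 (Dnmt1, Dnmt3b KO), -0.33 to -0.23 (Uhrf1, Dnmt1 KO), 0.20 to 0.34 (Uhrf1, Dnmt3b KO) and -0.0588 to 0.0712 (Uhrf1, Dnmt3b KO minus Dnmt3a KO). Genes passing in Dnmt1 KO ranged from 0 to 1 higher and 1 to 4 lower (partners) and 1 to 3 higher and 6 to 11 lower (S-phase list), with 0 to 1 lower of that list in Dnmt3b KO. Classes with higher Uhrf1 ranged from 0 to 2 in both Dnmt3a KO and Dnmt3b KO. At fixed makeup Dnmt1 ranged from -0.0955 to 0.0211 (Dnmt3a KO) and -0.0401 to 0.19 (Dnmt3b KO). Relative to the S-phase list Dnmt1 ranged from -2.60 to -2.52, -0.0626 to 0.0432 and -0.0336 to 0.13 in Dnmt1, Dnmt3a and Dnmt3b KO, and Uhrf1 from -0.19 to -0.13 in Dnmt1 KO and 0.24 to 0.33 in Dnmt3b KO. WT classes above and below the mean of the others ranged from 0 to 9 and 0 to 4 for Dnmt1 and 0 to 8 and 0 to 4 for Uhrf1.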
